A study of Mus musculus with 14 samples.

Results

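The expression of 10 genes of extracellular ATP signalling was described in the colon of WT and miR-29ab1-/- mice. The 10 genes are the receptors P2rx7, P2rx4, P2ry1, P2ry2, P2ry6, P2ry14 and Adora2b, the surface enzymes Entpd1 and Nt5e, and the channel Panx1. They were found by gene name in both deposited count tables, which list 55889 genes without dextran sulfate sodium (DSS) and 54721 genes after DSS. The set was chosen by the difference between genotypes, because P2rx7 was higher in the knockout in both experiments, so the values by genotype are given here as a description.

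RNA sequencing compared 4 WT and 4 miR-29ab1-/- mice without DSS, and 3 WT and 3 miR-29ab1-/- mice after 3 days of 3.5% DSS, a detergent-like polysaccharide in the drinking water that injures the colon epithelium. The study states that a WT sample and a miR-29ab1-/- sample were left out of its analysis, without naming the experiment or the reason. The sample titles give the C57BL/6N strain, and the study's methods give mice of 8 to 12 weeks unless noted. The miR-29ab1-/- mice lack miR-29a and miR-29b-1 in the germline, so every cell type of the tissue carries the deletion. The labels name crypts of the small intestine and the study names colon tissue. The DSS mice are given below in the order of the table's columns, whose numbers do not match those of the sample titles.

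ATP leaves stressed or dying cells, in part through pannexin channels, and acts on nearby cells through P2X receptors, which are ion channels opened by ATP, and P2Y receptors, which couple to G proteins. CD39, encoded by Entpd1, removes phosphates from ATP and ADP, and CD73, encoded by Nt5e, turns the resulting AMP into adenosine, which is sensed by receptors such as A2B. In the gut this system is known for its part in secretion, in epithelial repair and in the activation of T cells, mast cells and macrophages, on which P2rx7 is well studied.

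The mature microRNAs of the deleted locus are shown because their seed is what a target transcript would pair with. They lie on the minus strand of chromosome 6 in GRCm38.p6, miR-29a-3p at chr6:31062673-31062694 and miR-29b-3p of Mir29b-1 at chr6:31063025-31063047, and the sequences are from RefSeq. Capitals mark the seed, bases 2 to 8.
miR-29a-3p: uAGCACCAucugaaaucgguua
miR-29b-3p: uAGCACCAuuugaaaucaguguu
miR-29c-3p: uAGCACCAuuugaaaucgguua
The third, miR-29c-3p, comes from Mir29c on chromosome 1, which the miR-29ab1-/- mice keep together with Mir29b-2, a second source of miR-29b-3p. All of these microRNAs share 1 seed. The locus itself could not be followed in these libraries, since Mir29a had 0 reads in all 14 mice and Mir29b-1 had 1 read in each of 2 mice.

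The 3′ UTRs of coding transcripts in GENCODE vM21 were searched on the transcript strand for TGGTGCTA (8mer), TGGTGCT (7mer-m8) and GGTGCTA (7mer-A1), where an 8mer was counted once and not again as the shorter matches within it. Of 21037 genes with a 3′ UTR, 16.8% held at least 1 match and 13.8% held an 8mer or a 7mer-m8. Of the 10 members, P2rx7 and Panx1 held a match, and the other 8 had none of these letters in their 3′ UTRs. The sites are shown with the flanking bases, with the match in capitals.
P2rx7 first site: cctttggccacTGGTGCTctcctgagggt
P2rx7 second site: aaccacgatgtTGGTGCTgggaaccaaac
Panx1 7mer-m8 site: acaacagcaaaTGGTGCTttagttttgtg
Panx1 first 7mer-A1 site: ctggactggcaGGTGCTAgaggacctggg
Panx1 second 7mer-A1 site: agagtataataGGTGCTAattcgtagttg
The windows of P2rx7 lie on the plus strand at chr5:122683906-122683934 and chr5:122691354-122691382. The first was in 2 and the second in 1 of the 5 coding transcripts of P2rx7 with an annotated stop codon, and the deposited counts are per gene, so they do not show which of these transcripts was present. The windows of Panx1 lie on the minus strand, the 7mer-m8 at chr9:15002168-15002196 and the others at chr9:15005856-15005884 and chr9:15003113-15003141, and Panx1 has 1 such transcript. A match of letters is a description and not a measured site.

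All positions of the 10 members in the deposited tables were those of GENCODE vM21 on GRCm38. P2rx7 (ENSMUSG00000029468) is on the plus strand at chr5:122643911-122691432, and P2rx4 (ENSMUSG00000029470) follows it on the same strand at chr5:122707544-122729738, 16111 bases further on. P2ry6 (ENSMUSG00000048779, chr7:100937630-100974649) and P2ry2 (ENSMUSG00000032860, chr7:100996568-101012866) are neighbours on the minus strand of chromosome 7, 21918 bases apart. P2ry1 (ENSMUSG00000027765) is at chr3:61002795-61008982 and P2ry14 (ENSMUSG00000036381) at chr3:59113855-59153618. Entpd1 (ENSMUSG00000048120) is at chr19:40612366-40741602, Nt5e (ENSMUSG00000032420) at chr9:88327197-88372092, Adora2b (ENSMUSG00000018500) at chr11:62248984-62266453 and Panx1 (ENSMUSG00000031934) at chr9:15002128-15045478.

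Levels are given as CPM, read counts scaled to library size, on 1 scale for all 14 mice. Without DSS, reads on genes totalled 17177177 to 18185020 in WT and 14231157 to 16100607 in miR-29ab1-/- mice, so every miR-29ab1-/- library was smaller. After DSS they totalled 20506610 to 22990024 in WT and 20076719 to 23153149 in miR-29ab1-/- mice. A count of 3 reads, taken as the floor for a single mouse, was 0.148 to 0.195 CPM without DSS and 0.141 to 0.180 CPM after DSS, and covers counting error only. In bulk tissue, fewer cells of a type and less RNA per cell cannot be told apart. The 7 genes of the colon epithelium, which include Muc2, summed to 1501 to 16109 CPM over the mice. Car1 made up 56.8% to 84.4% of that sum without DSS and 32.4% to 51.5% after DSS. The 8 genes of the small intestine summed to 159 to 505 CPM. Fabp2, which the colon also expresses, made up 83.9% or more of this second sum in every mouse. The 6 smooth muscle genes summed to at most 4.07 CPM, and Sox10, a gene of enteric glia, was at 0 in all mice. The tables also differ in ways DSS cannot be told apart from: Muc2, the main gel-forming mucin of the colon, was at 20.6 to 149 CPM without DSS and at 4008 to 8998 CPM after DSS.

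Per kilobase of gene length, P2rx4 was the most abundant member, with a mean of 25.1 CPM per kb over the 14 mice. It is followed by P2ry6 at 6.85, Nt5e at 6.31, Panx1 at 5.86, P2ry1 at 5.83, P2ry2 at 4.75 and P2rx7 at 3.56 CPM per kb. Adora2b at 0.744 and Entpd1 at 0.201 CPM per kb were far lower, and P2ry14 at 0.00645 CPM per kb was last. The members from P2ry6 to P2ry2 lay close together and their mice overlapped, while P2rx4 stood above and Adora2b, Entpd1 and P2ry14 below all of them in every mouse.

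**Figure D1:**
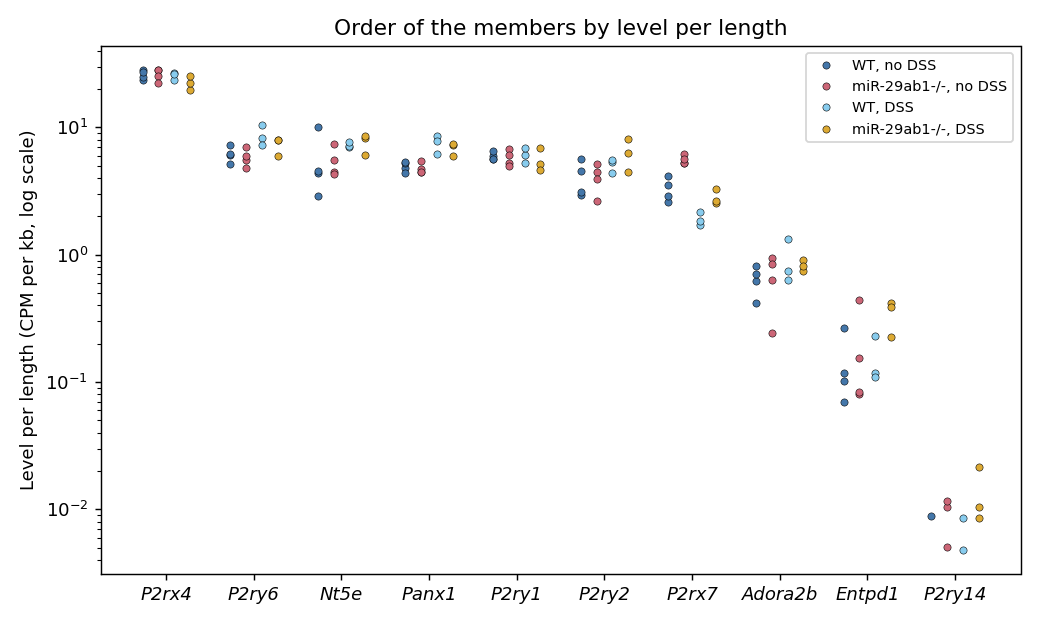
Level per length (CPM per kb, log scale) of the 10 members, ordered by their mean over the 14 mice, with 1 point per mouse coloured by group; mice at 0 are not drawn. P2rx4 lies above, and Adora2b, Entpd1 and P2ry14 lie below, the members between 6.85 and 3.56 CPM per kb.

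P2rx7, the ATP-gated channel linked to inflammasome activation and to the death of T cells, was the member whose genotypes stood apart. Without DSS it had 505, 281, 418 and 333 reads in WT mice 1 to 4 and 592, 563, 544 and 521 reads in miR-29ab1-/- mice 1 to 4. In CPM these were 25.0, 15.5, 21.0 and 17.3 in the WT mice and 36.7, 31.7, 31.6 and 33.8 in the miR-29ab1-/- mice. The lowest miR-29ab1-/- mouse was above the highest WT mouse, WT mouse 1.

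After DSS, P2rx7 was at 12.8, 10.3 and 10.95 CPM in the WT mice (271, 219 and 205 reads) and at 19.6, 15.1 and 15.8 CPM in the miR-29ab1-/- mice (336, 253 and 335 reads). The genotypes again did not overlap. The log2 fold change of miR-29ab1-/- against WT was 0.76 (SE 0.15) without DSS and 0.56 (SE 0.16) after DSS, which is 1.69-fold and 1.48-fold. These are the values the rule used. Leaving out any 1 mouse gave 0.66 to 0.91 without DSS and 0.44 to 0.65 after DSS.

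The order of the group means of P2rx7 was 33.5 CPM ± 2.39 (SD, n = 4) in miR-29ab1-/- mice without DSS, 19.7 CPM ± 4.19 (SD, n = 4) in WT mice without DSS, 16.8 CPM ± 2.40 (SD, n = 3) in miR-29ab1-/- mice after DSS and 11.4 CPM ± 1.30 (SD, n = 3) in WT mice after DSS. The neighbours in the middle of this order overlapped, with WT mice without DSS at 15.5 to 25.0 CPM and miR-29ab1-/- mice after DSS at 15.1 to 19.6 CPM. The other neighbours did not overlap.

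**Figure D2:**
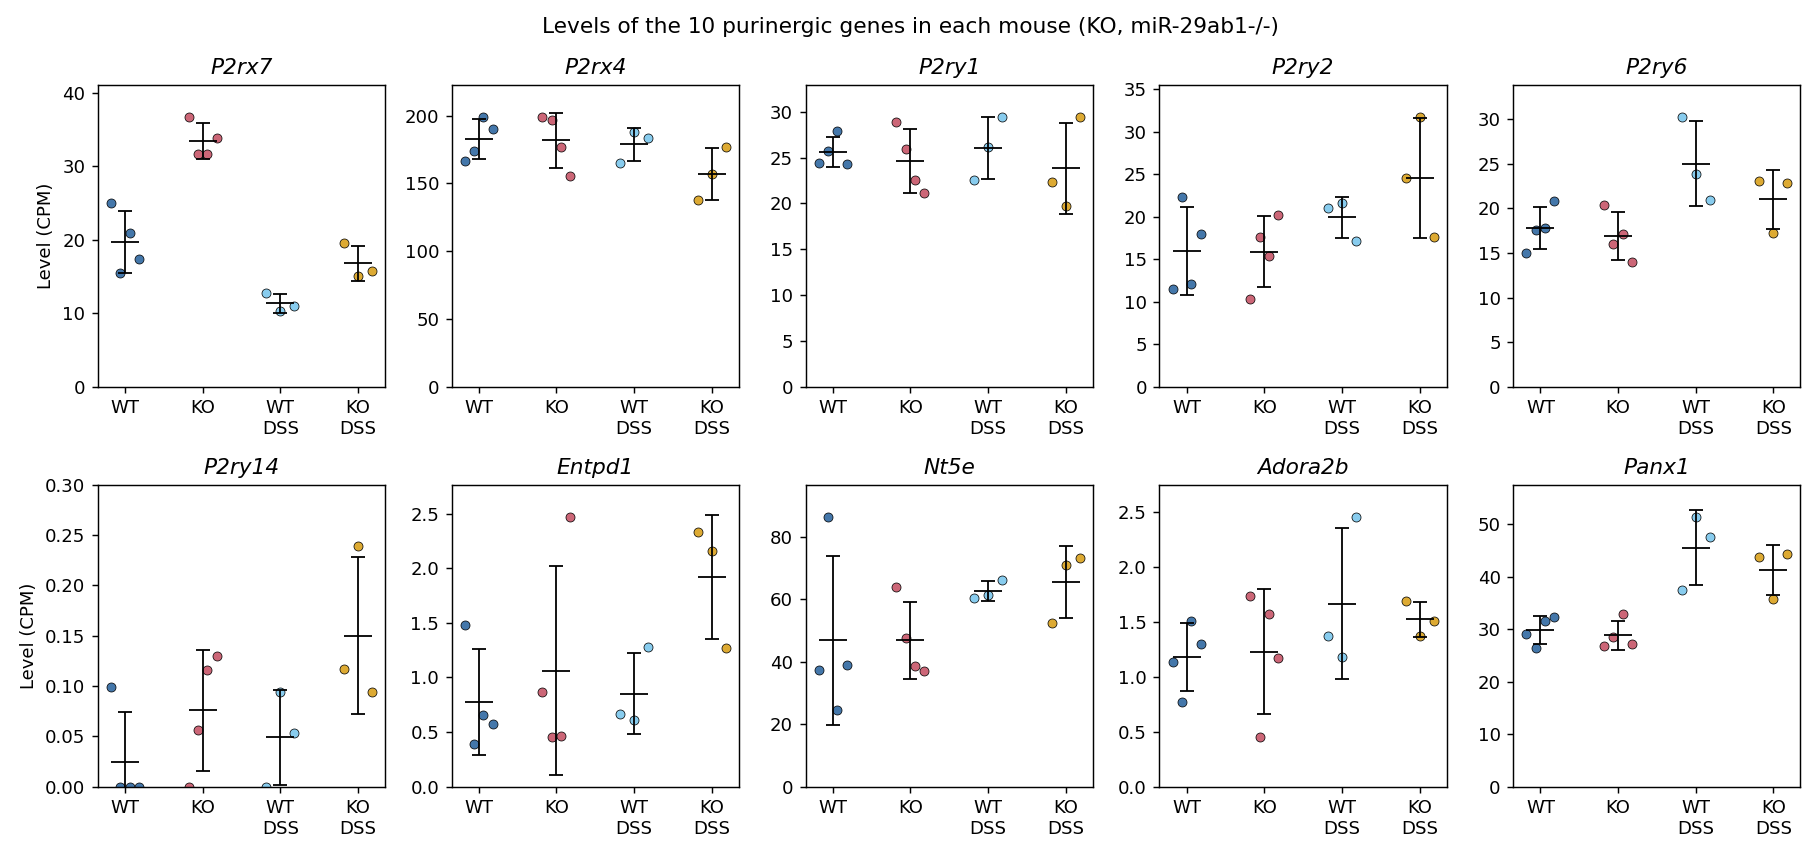
Level (CPM, from 0 on each axis) of the 10 members in each mouse, by group, with the mean and the SD as a bar; WT and KO (miR-29ab1-/-) without DSS hold 4 mice each, and the groups marked DSS hold 3 each. P2rx7 separates all miR-29ab1-/- mice from all WT mice in each experiment and is lower after DSS, while Panx1 is higher in every DSS mouse than in every mouse without DSS.

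The mice of both genotypes overlapped for the other members. Their log2 fold changes of miR-29ab1-/- against WT without DSS were 0.00 (SE 0.10) for P2rx4, -0.06 (SE 0.12) for P2ry1, 0.00 (SE 0.25) for P2ry2, -0.07 (SE 0.14) for P2ry6 and -0.05 (SE 0.11) for Panx1. Nt5e at 0.01 (SE 0.37), Adora2b at 0.06 (SE 0.41) and Entpd1 at 0.43 (SE 0.62) were measured less precisely. Without WT mouse 2 the value of Nt5e was 0.47.

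After DSS the values were -0.19 (SE 0.11) for P2rx4, -0.13 (SE 0.17) for P2ry1, 0.30 (SE 0.21) for P2ry2, -0.25 (SE 0.17) for P2ry6 and -0.14 (SE 0.14) for Panx1. Nt5e was at 0.06 (SE 0.13) and Adora2b at -0.13 (SE 0.37), and the genotypes overlapped in all of these. Entpd1 had a larger value than P2rx7 and a wider error, 1.16 (SE 0.43, 95% interval 0.20 to 2.13), with 0.662, 0.612 and 1.28 CPM in the WT mice and 2.33, 2.16 and 1.27 CPM in the miR-29ab1-/- mice, which is 13 to 40 reads a mouse. The third miR-29ab1-/- mouse lay just below the third WT mouse, so the genotypes overlapped for Entpd1 too.

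**Figure D3:**
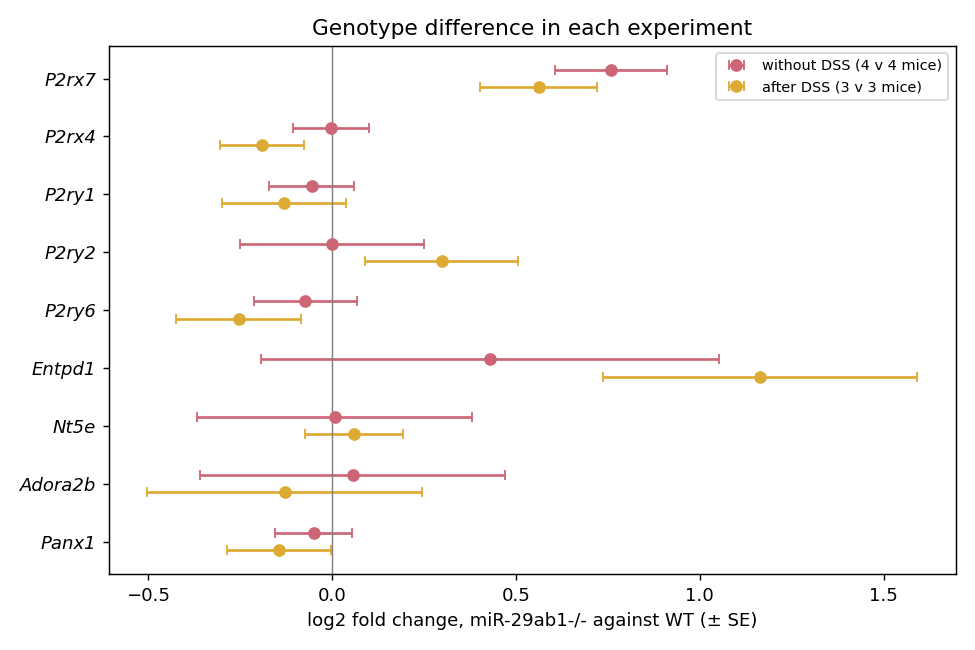
Log2 fold change of miR-29ab1-/- against WT (points, with the SE as a bar) for the 9 members that could be fitted, without DSS and after DSS. P2rx7 lies at 0.76 and 0.56; Entpd1 lies at 0.43 (SE 0.62) and 1.16 (SE 0.43), and the values of the other members lie between -0.25 and 0.30.

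In edgeR's quasi-likelihood test with Benjamini-Hochberg adjustment over all genes, none of the 9 members that passed the filter on low counts was called between genotypes in either experiment, where an adjusted p under 0.05 was reached by 0.0194% of 15441 genes without DSS and by 0.0134% of 14908 genes after DSS. At an unadjusted p under 0.05 there was 1 member without DSS and there were 2 after DSS, beside 3.67% and 7.23% of all genes. DESeq2 called 1 member without DSS, P2rx7, beside 0.155% of 14824 genes, and none after DSS, beside 0.421% of 14029 genes. Without the third miR-29ab1-/- DSS mouse, edgeR called 93 genes after DSS in place of 2, and still none of the members. Genotypes did not overlap in 1 of the 9 members in each experiment, beside 1.94% of 15101 genes without DSS and 11.7% of 14715 genes after DSS. The rule used this contrast, so nothing is read from these counts. The median log2 fold change of the 9 members was 0.00 without DSS and -0.13 after DSS, beside 0.00 and -0.01 over all genes tested.

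A test of whether the genotype difference changed between the experiments called 0 of the 9 members and 0% of 16196 genes in edgeR, and no member passed an unadjusted p under 0.05, beside 3.96% of all genes. DESeq2 called no member and 0% of 16184 genes.

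T cells, mast cells and macrophages are known to express P2rx7, and their marker genes were followed beside it. The 10 T cell genes, 9 or 10 of which were above 3 reads in every mouse of each group, had sums of 39.4 to 142 CPM in WT and 32.4 to 169 CPM in miR-29ab1-/- mice without DSS. After DSS the sums were 47.2 to 91.1 CPM in WT and 66.1 to 160.1 CPM in miR-29ab1-/- mice, so the genotypes overlapped in both experiments. The mouse with the highest P2rx7, miR-29ab1-/- mouse 1 at 36.7 CPM, had the lowest T cell sum, 32.4 CPM, and the highest WT mouse, WT mouse 1, had the highest WT sum, 142 CPM. After DSS the first miR-29ab1-/- mouse was highest in both, and without it the log2 fold change of P2rx7 was 0.44. The 9 genes of intraepithelial lymphocytes overlapped between genotypes as well, at 63.6 to 283 CPM in WT and 40.0 to 269 CPM in miR-29ab1-/- mice without DSS, and at 82.2 to 159 CPM and 104 to 206 CPM after DSS. After DSS the T cell genes moved with P2rx7, since 10 of 10 tested had a log2 fold change of miR-29ab1-/- against WT above 0, with a median of 0.58. Without DSS 8 of 9 were above 0, with a median of 0.13. The intraepithelial lymphocyte genes were above 0 in 2 of 9 without DSS, with a median of -0.20, and in 6 of 9 after DSS, with a median of 0.30. No gene of either list was called between genotypes.

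**Figure D4:**
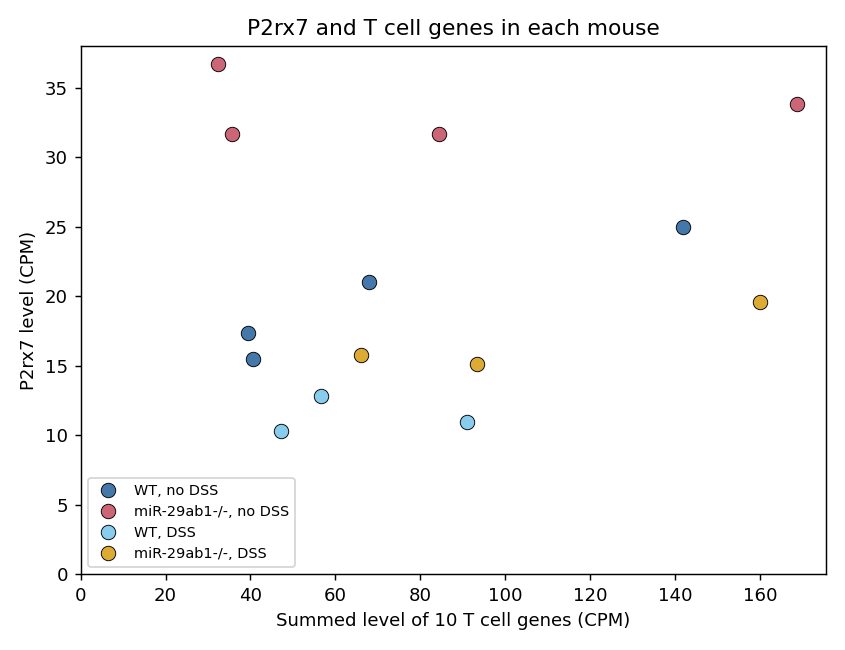
P2rx7 level (CPM) against the summed level of 10 T cell genes (CPM), 1 point per mouse, coloured by group. The miR-29ab1-/- mice without DSS lie at 31.6 to 36.7 CPM of P2rx7 over T cell sums from 32.4 to 169 CPM.

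The 8 mast cell genes summed to 127 to 219 CPM in WT and 161 to 229 CPM in miR-29ab1-/- mice without DSS. Kit, the stem cell factor receptor, which some crypt cells also express, made up 85.8% or more of that sum. After DSS the sums were 65.8 to 74.2 CPM in WT and 39.2 to 55.6 CPM in miR-29ab1-/- mice, with no overlap, and Kit made up 69.1% or more. Between genotypes, 4 of 5 mast cell genes tested without DSS had a log2 fold change above 0, with a median of 0.16. After DSS this was 0 of 4, with a median of -1.41. The 10 macrophage genes, of which Cd14 made up 73.9% or more of the sum in every mouse, lay at 54.5 to 64.5 CPM in WT and 53.9 to 67.7 CPM in miR-29ab1-/- mice without DSS. After DSS they lay at 88.8 to 101.1 CPM in WT and 102.3 to 133 CPM in miR-29ab1-/- mice, so the genotypes came close without overlap. Of single genes, 11.7% of 14715 did not overlap between genotypes after DSS. The 6 neutrophil genes, of which Ly6g made up 80.9% or more of the sum after DSS, then lay at 51.3 to 110.1 CPM in WT and 103 to 270.3 CPM in miR-29ab1-/- mice. All 4 neutrophil genes tested after DSS were above 0 between genotypes, with a median of 2.06, and none of the macrophage, mast cell or neutrophil genes was called. The part of any of these cells in the P2rx7 difference was not tested.

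Of the 14147 other genes tested in both tables, Zbtb12, a zinc finger protein, varied most like P2rx7 among the mice within their groups. After each group's mean was subtracted, its Pearson's r with P2rx7 in log2 CPM was 0.93 over the 14 mice (Spearman's rho 0.90). The next were Lfng, a glycosyltransferase that modifies Notch receptors, with r = 0.90 (rho 0.90), and Ppm1f, a protein phosphatase, with r = 0.88 (rho 0.89). The points share libraries and depth, and r is a description. Among the members, Entpd1 had the highest r with P2rx7, 0.52, and P2ry2 the lowest, -0.59.

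The comparison of DSS with no DSS was not used to choose the members, though it is made from the same counts. DSS cannot be told apart from the experiment, since the treated and untreated mice are in different tables. P2rx7 fell and Panx1, the pannexin through which cells release ATP, rose in both genotypes, and P2ry6, a receptor for UDP, rose in WT mice. The calls of Panx1 and P2ry6 held with TMM scaling and were lost with scaling by total counts. These were the calls among the 9 members tested, in edgeR's quasi-likelihood test. In WT mice 2 rose and 1 fell, beside 20% of 16196 genes that rose and 17.9% that fell. In miR-29ab1-/- mice 1 rose and 1 fell, beside 23% and 22.6% of all genes. The other 6 and 7 members were not called. The groups did not overlap in 3 members in WT and 2 in miR-29ab1-/- mice, beside 43% and 48.1% of all genes. The median log2 fold change of the members was 0.32 in WT and 0.32 in miR-29ab1-/- mice, and that of all genes was -0.02 and -0.03.

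P2rx7 fell by 0.79 on the log2 scale in WT mice (SE 0.16, adjusted p = 0.00127 in edgeR), from 15.5 to 25.0 CPM without DSS to 10.3 to 12.8 CPM after DSS. In miR-29ab1-/- mice it fell by 0.99 (SE 0.16, adjusted p = 0.000145), from 31.6 to 36.7 CPM to 15.1 to 19.6 CPM. All 3 DSS mice lay below all 4 mice without DSS in each genotype. The mast cell sums, of which Kit made up 69.1% or more, did not overlap either and were lower after DSS. In WT mice 1 of the 5 mast cell genes tested was called lower, while 3 of the 5 had a log2 fold change above 0 and the median was 0.13. In miR-29ab1-/- mice 3 of 5 were called lower, none was above 0 and the median was -1.68. Genes of B cells were also called lower, 1 of 6 tested in WT and 4 of 6 in miR-29ab1-/- mice. So were 2 of 3 genes of enteric nerve and glia and 1 of 3 of endothelium in each genotype. Of all 16196 genes, 17.9% and 22.6% were called lower. The part of any of these cells in the fall of P2rx7 was not tested. The T cell sums overlapped between the experiments in both genotypes.

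Panx1 rose by 0.61 on the log2 scale in WT mice (SE 0.12, adjusted p = 0.00164 in edgeR) and by 0.52 in miR-29ab1-/- mice (SE 0.12, adjusted p = 0.00349). Its levels in WT mice were 29.1, 26.4, 31.6 and 32.4 CPM without DSS and 37.5, 51.3 and 47.5 CPM after DSS. In miR-29ab1-/- mice they were 26.8, 28.5, 32.9 and 27.2 CPM without DSS and 43.7, 35.7 and 44.3 CPM after DSS. No mouse without DSS reached the lowest DSS mouse in either genotype.

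P2ry6 was at 14.99, 17.6, 17.8 and 20.8 CPM in WT mice without DSS and at 30.2, 23.9 and 20.9 CPM after DSS. The highest mouse without DSS came just below the lowest DSS mouse. Its log2 fold change was 0.49 (SE 0.16, adjusted p = 0.0263 in edgeR), and without the first DSS mouse it was 0.34 (adjusted p = 0.151). The call was also lost without WT mouse 1 (0.42, adjusted p = 0.0717) and without WT mouse 3 (0.49, adjusted p = 0.0533). In miR-29ab1-/- mice P2ry6 lay at 13.97 to 20.4 CPM without DSS and 17.2 to 23.0 CPM after DSS, with a log2 fold change of 0.32 (95% interval -0.03 to 0.66) that was not called, and without the second DSS mouse it was 0.46 (adjusted p = 0.0457). A difference between the genotypes in this response was not shown.

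The direction of small changes between the tables depends on the scaling. With total counts in place of TMM factors, the median log2 fold change of all genes moved from -0.02 to -0.26 in WT and from -0.03 to -0.39 in miR-29ab1-/- mice. Of the genes called, 25.5% and 19.5% were then higher after DSS, in place of 52.7% and 50.4%. P2rx7 then fell by 1.04 in WT and by 1.35 in miR-29ab1-/- mice, further than this median in both, and both calls held. Panx1 was then at 0.37 (adjusted p = 0.060) and 0.16 (adjusted p = 0.393), and P2ry6 in WT at 0.26 (adjusted p = 0.262), so those calls were lost, while P2rx4 was called lower in miR-29ab1-/- mice (-0.58, adjusted p = 0.00197).

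Macrophage genes called higher after DSS numbered 3 of 9 tested in WT and 5 of 9 in miR-29ab1-/- mice, and neutrophil genes 1 of 4 and 4 of 4. Of all 16196 genes, 20% were called higher in WT and 23% in miR-29ab1-/- mice. All 7 genes of the epithelium were called higher in both genotypes, and 6 in WT and 5 in miR-29ab1-/- mice with total counts. These calls had the direction of Panx1 in both genotypes and of P2ry6 in WT mice, while P2ry6 was not called in miR-29ab1-/- mice. The part of these cells in those changes was not tested.

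P2rx4, an ATP-gated channel of wide expression, was at 167 to 199 CPM in WT and 156 to 199 CPM in miR-29ab1-/- mice without DSS, and at 165 to 188 CPM and 138 to 176 CPM after DSS. The groups overlapped, and the log2 fold change with DSS was -0.03 (95% interval -0.27 to 0.21) in WT and -0.21 (95% interval -0.45 to 0.03) in miR-29ab1-/- mice. P2ry1, the ADP receptor known from platelets, was at 19.8 to 29.4 CPM over all 14 mice, and its log2 fold change with DSS was 0.03 (95% interval -0.28 to 0.33) in WT and -0.05 (95% interval -0.36 to 0.26) in miR-29ab1-/- mice.

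P2ry2, a receptor for ATP and UTP on epithelial cells, lay at 11.5 to 22.4 CPM in WT and 10.4 to 20.1 CPM in miR-29ab1-/- mice without DSS, and at 17.1 to 21.6 CPM and 17.6 to 31.7 CPM after DSS. Its log2 fold change with DSS was 0.32 (95% interval -0.25 to 0.89) in WT and 0.63 (95% interval 0.06 to 1.19, adjusted p = 0.0659) in miR-29ab1-/- mice, and neither was called by edgeR. DESeq2 called the latter (adjusted p = 0.0443), in a comparison where it called 3 members beside 47.1% of 16184 genes (3 and 40.3% in WT), and edgeR did without the third DSS mouse (0.83, adjusted p = 0.0278) or without miR-29ab1-/- mouse 4 (0.76, adjusted p = 0.0423).

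Nt5e, the enzyme that makes adenosine from AMP, varied most among WT mice without DSS, at 37.4, 86.4, 24.7 and 38.9 CPM, so that WT mouse 2 was above every other mouse of the study. It was at 64.0, 47.7, 38.7 and 37.0 CPM in miR-29ab1-/- mice without DSS, at 60.4 to 66.3 CPM in WT and at 52.4 to 73.3 CPM in miR-29ab1-/- mice after DSS. The log2 fold change with DSS was 0.42 (95% interval -0.32 to 1.17) in WT and 0.48 (95% interval -0.26 to 1.23) in miR-29ab1-/- mice. Without WT mouse 2 the WT value was 0.90 (adjusted p = 0.00616 in edgeR), a call that this mouse decides.

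Entpd1, the enzyme that degrades ATP and ADP, was near 1 CPM, with 7 to 40 reads a mouse. Without DSS it was at 1.48, 0.387, 0.653 and 0.573 CPM in WT mice and at 0.868, 0.450, 0.465 and 2.47 CPM in miR-29ab1-/- mice. The highest mouse of each genotype, WT mouse 1 and miR-29ab1-/- mouse 4, was also the highest in T cell genes, at 142 and 169 CPM. Without miR-29ab1-/- mouse 4, the genotype value without DSS went from 0.43 to -0.40, and the log2 fold change with DSS in miR-29ab1-/- mice went from 0.86 (95% interval -0.35 to 2.07) to 1.68 (adjusted p = 0.0173 in edgeR). Entpd1 overlaps the small genes Gm8783, with 81 reads without DSS and 97 after DSS, and Gm16027 on the same strand, so its 129 and 154 reads in all may be divided among them.

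Adora2b, the low-affinity adenosine receptor of the colon epithelium, had 8 to 46 reads a mouse, or 0.450 to 2.46 CPM. The log2 fold change with DSS was 0.49 (95% interval -0.37 to 1.35) in WT and 0.31 (95% interval -0.57 to 1.19) in miR-29ab1-/- mice. P2ry14, a receptor for UDP-glucose, had 0 to 4 reads a mouse and did not pass the filter in any fit. It lies within Med12l on the opposite strand, which had 256 reads without DSS and 192 after DSS, and the use of strand in counting is not given in the sources used here. Its highest level was 0.240 CPM, in the second miR-29ab1-/- DSS mouse with 4 reads, and all other mice had 2 reads or fewer.

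Of 40 other genes of the pathway in a list of P2X, P2Y and adenosine receptors, ectonucleotidases, release channels and adenosine transporters, 29 were tested with DSS. In WT mice 5 were called higher and 7 lower after DSS, and in miR-29ab1-/- mice 7 and 9, with 17 and 13 not called. Of all 16196 genes, 20% were called higher and 17.9% lower in WT, and 23% and 22.6% in miR-29ab1-/- mice. The median log2 fold change was -0.17 in WT and -0.16 in miR-29ab1-/- mice, beside -0.02 and -0.03 over all genes. With scaling by total counts the counts became 2 higher and 11 lower in WT, and 2 and 12 in miR-29ab1-/- mice. Of all genes, 1615 were then called higher and 4725 lower in WT, and 1634 and 6741 in miR-29ab1-/- mice. Between genotypes none of 28 genes without DSS and none of 25 after DSS was called by edgeR, beside 0.0194% and 0.0134% of all genes. At an unadjusted p under 0.05 there were 2 and 4, beside 3.67% and 7.23% of all genes. Genotypes did not overlap in 1 of the 28 without DSS and in 7 of the 25 after DSS. Over all genes this was 1.94% of 15101 and 11.7% of 14715. Genotypes that stand apart are thus not particular to P2rx7 in this pathway.

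Among the enzymes, those with the highest level per length were not members. Entpd8, the ectonucleotidase of the colon epithelium, had 53.3 CPM per kb and Entpd5, a nucleoside diphosphatase of the endoplasmic reticulum, 38.6, beside 0.201 for Entpd1. The log2 fold change of Entpd8 with DSS was 0.05 (95% interval -0.31 to 0.40) in WT and 0.19 (95% interval -0.16 to 0.55) in miR-29ab1-/- mice, and Entpd8 turned negative in both with total counts. Entpd5 rose by 0.42 in WT (adjusted p = 0.0184) and 0.47 in miR-29ab1-/- mice (adjusted p = 0.00817), and neither call held with total counts or without the third DSS mouse of the genotype (adjusted p = 0.0932 and 0.0532). Alpi, the intestinal alkaline phosphatase, rose by 0.91 (adjusted p = 0.025) and 0.97 (adjusted p = 0.0152), which were also not called with total counts. The WT call of Alpi was lost without WT mouse 1 or 2 or without the second or the third DSS mouse (adjusted p = 0.0611 to 0.0876), and the miR-29ab1-/- call without the third DSS mouse (adjusted p = 0.0787). Enpp3, a nucleotide pyrophosphatase, fell by 1.08 in miR-29ab1-/- mice (adjusted p = 0.0289), from 2.18 to 1.03 CPM. This call was lost without any 1 of the 3 DSS mice and without miR-29ab1-/- mouse 1 or 3 (adjusted p = 0.0544 to 0.0870). In WT mice Enpp3 was at -0.59 and not called, and without the second DSS mouse at -1.06 (adjusted p = 0.0439).

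Slc29a4, a transporter of monoamines that also carries adenosine, fell by 2.17 on the log2 scale in WT mice (SE 0.41, adjusted p = 0.00123 in edgeR), from 12.4 to 2.77 CPM, and by 2.56 in miR-29ab1-/- mice (SE 0.43, adjusted p = 0.000296), from 13.1 to 2.21 CPM. Slc29a1, the equilibrative nucleoside transporter ENT1, fell by 0.73 in WT (adjusted p = 0.00557) and by 1.48 in miR-29ab1-/- mice (adjusted p = 2.59e-05), from 28.2 to 10.04 CPM in the latter. Adk, the kinase that turns adenosine into AMP inside the cell, rose by 0.68 in WT (adjusted p = 0.000107) and by 1.07 in miR-29ab1-/- mice (adjusted p = 1.05e-06). These 3 genes were called in both genotypes with both scalings. Slc28a3, a concentrative nucleoside transporter, rose by 0.76 in WT (adjusted p = 0.0342) and 0.82 in miR-29ab1-/- mice (adjusted p = 0.0195), which did not hold with total counts. Without the second DSS mouse the WT value of Slc28a3 was 0.27 (adjusted p = 0.340), and the WT call was also lost without WT mouse 3 or 4. The miR-29ab1-/- call was lost without the first DSS mouse or miR-29ab1-/- mouse 4 (adjusted p = 0.0605 and 0.0513).

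**Figure D5:**
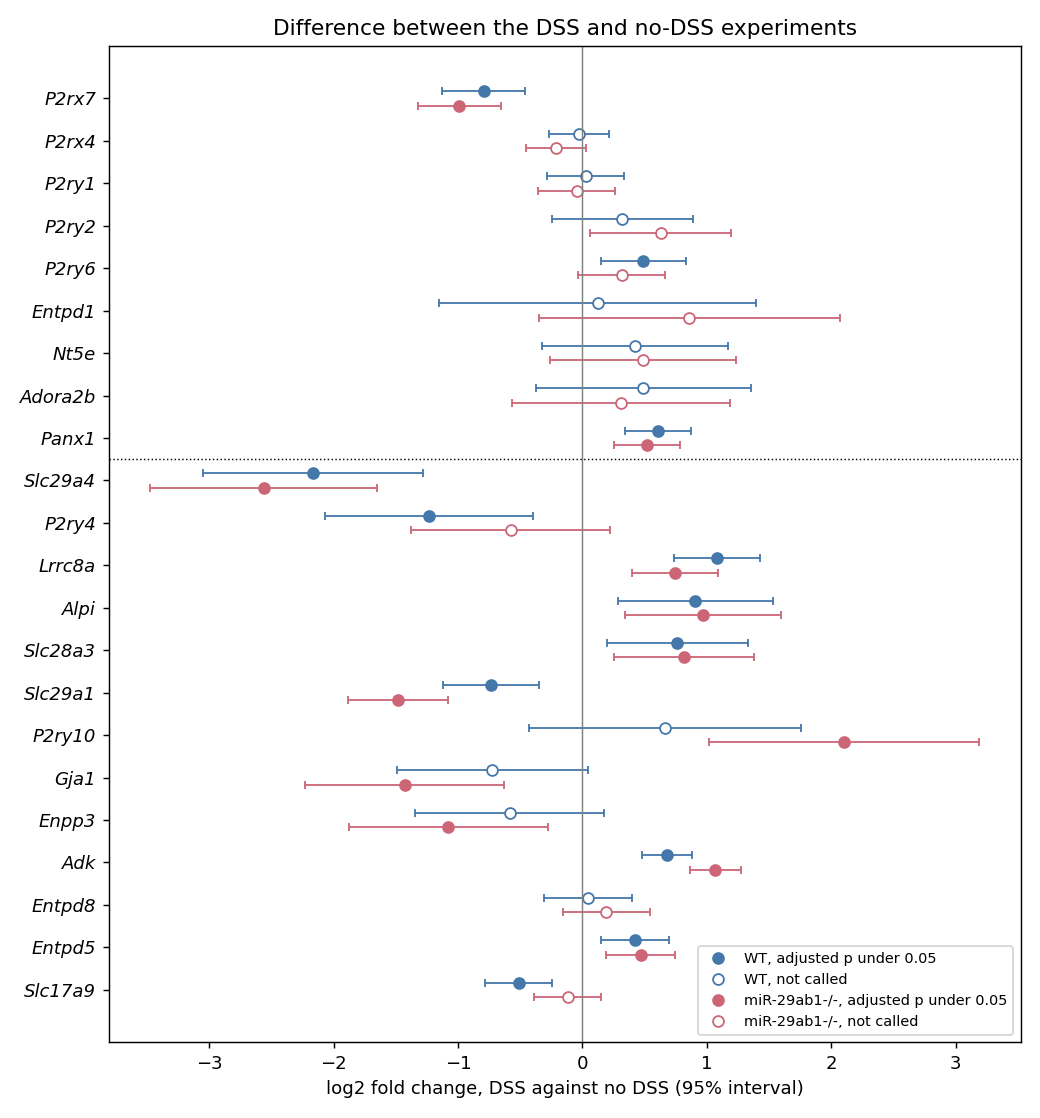
Log2 fold change of DSS against no DSS (points, with the 95% interval as a bar) in WT and miR-29ab1-/- mice for 9 members, above the dotted line, and 13 other genes of the pathway, below it; filled points have an adjusted p under 0.05 in edgeR. P2rx7 lies at -0.79 and -0.99 and Panx1 at 0.61 and 0.52, and Slc29a4 has the lowest values, -2.17 and -2.56.

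Of the release genes, Lrrc8a, a subunit of volume-regulated anion channels, rose by 1.08 in WT mice (adjusted p = 0.000184 in edgeR), from 6.28 to 13.3 CPM, and by 0.74 in miR-29ab1-/- mice (adjusted p = 0.00185), where the call was lost with total counts. Slc17a9, the vesicular nucleotide transporter that loads ATP into vesicles, had 35.9 CPM per kb and fell by 0.51 in WT mice (adjusted p = 0.00569). In miR-29ab1-/- mice Slc17a9 was at -0.12 and not called, and with total counts at -0.51 (adjusted p = 0.00232). Gja1, the gap junction protein connexin 43, fell by 1.43 in miR-29ab1-/- mice (adjusted p = 0.00606), from 3.84 to 1.43 CPM. In WT mice Gja1 was at -0.73 and not called, and with total counts at -0.95 (adjusted p = 0.0441). Of the receptors, P2ry4 fell by 1.23 in WT mice (adjusted p = 0.0222), from 3.52 to 1.49 CPM, a call lost without the second or the third DSS mouse (adjusted p = 0.0618 and 0.0915). In miR-29ab1-/- mice P2ry4 was at -0.58 and not called, and with total counts at -0.98 (adjusted p = 0.0327). P2ry10, a receptor of lymphocytes, is listed here among the P2Y receptors by name only. Its level rose by 2.10 in miR-29ab1-/- mice (adjusted p = 0.00389), from a mean of 1.80 to 7.73 CPM. The mice with and without DSS overlapped for P2ry10, as did the T cell sums, and the part of T cells was not tested. In WT mice P2ry10 was at 0.66 and not called. A difference between the genotypes in the responses of Gja1, P2ry4 and P2ry10 was not shown.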

How the data were processed

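Total RNA of 14 mice was extracted with TRIzol, and libraries were made with a kit that keeps the strand. Unnormalized read counts per gene were deposited by the authors, with 1 table for each experiment. The submitters' processing notes name HISAT2 and DESeq2, and the genome build, the counting tool and its use of strand are not given in the sources used here. The 14 FPKM columns, and columns of the authors' own comparison (group means, fold changes, p-values), were not used. Rows without an Ensembl identifier held 0.25% of counts without DSS and 0.133% after DSS. Nothing says that the mice of a group were processed separately beyond being separate samples, so p-values measure the spread between these samples.

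R 4.3.3 and edgeR 4.0.16 (filterByExpr with at least 10 reads, 15 over all mice; TMM; glmQLFit and glmQLFTest, robust) compared the counts between genotypes within each table and, for DSS, in 1 fit of 14 mice over the 54189 Ensembl genes in both tables, 97.1% of which have the same length in both. The 10 members and their lists were chosen with earlier results of these data known. CPM used the TMM factors of the 14-mouse fit. SE is the log2 fold change divided by the root of edgeR's F. The test was tried on simulated counts. Named genes are the members, other pathway genes called with DSS (the 6 largest changes per genotype with a mean of at least 1 CPM), the 4 most abundant per length, and the 3 genes most like P2rx7. Alternatives were DESeq2 1.42.0, RLE factors, other filters, each mouse left out, a replicate block, subsets of mice and, chosen after seeing the data, total counts and genes of equal length.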

Additional observations from a re-analysis of the deposited data

How the results depend on the processing

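Between genotypes, P2rx7 lay at 0.66 to 0.91 without DSS and at 0.44 to 0.65 after DSS over the alternatives. These refits use the counts by which the members were chosen, so their shared direction is no independent support. With DSS, P2rx7 lay at -1.04 to -0.66 in WT and -1.35 to -0.90 in miR-29ab1-/- mice. The choice did not use this comparison, but it is made from the same counts. Members called between genotypes without DSS went from 0 to 1, P2rx7, with DESeq2 and with no filter on low counts, where 23 and 11 genes were called in all in place of 3. After DSS they called 59 and 46 genes in place of 2. Members called with DSS in WT went from 3 to 1 with total counts, where 6340 genes were called in all in place of 6139. Leaving out 1 mouse gave 2 to 4 members in WT, beside 4634 to 5966 genes in all. In miR-29ab1-/- mice it gave 2 to 4 members in place of 2, beside 6052 to 7084 genes in place of 7388. There were 4 members when miR-29ab1-/- mouse 4 was left out.

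The WT calls of Alpi (0.91, adjusted p = 0.0673, with no filter), Entpd5 (0.39, adjusted p = 0.0523) and Slc28a3 (0.73, adjusted p = 0.0930), the last pair with only the 7 WT mice, were also lost. Changes of sign with DSS were among values that were not called. With total counts the value was -0.13 for Entpd1, -0.19 for Entpd8 and -0.21 for P2ry1 in WT mice, and -0.047 for Adora2b, -0.19 for Entpd8 and -0.040 for P2ry6 in miR-29ab1-/- mice. With at least 10 counts in every mouse Entpd8 was at -0.00090 and P2ry1 at -0.024 in WT mice, and P2ry1 was at -0.0080 with only the 7 WT mice. Leaving out 1 mouse gave -0.28 to 0.64 for Entpd1, -0.051 to 0.13 for Entpd8, -0.071 to 0.030 for P2rx4 and -0.064 to 0.13 for P2ry1 in WT mice, and -0.22 to 0.093 for P2ry1 and -0.25 to 0.0095 for Slc17a9 in miR-29ab1-/- mice. The cause was not tested.

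Without DSS, same-numbered WT and miR-29ab1-/- mice are different animals, and their deviations from the group means correlated at -0.19 to 0.15, with 2 of 8 mice closest to their own number. With the replicate number as a block, P2rx7 was at 0.78 and 0 members were called, as without it. No paired analysis was possible after DSS because the columns do not carry the numbers of the labels. Few reads limit Entpd1, Adora2b and P2ry14.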
